A study of Capra hircus with 6 samples.

Results

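The genes that mark tanycytes or handle thyroid hormone were compared between the hypothalamus of pubertal and prepubertal goats. They were 9 genes named by their NCBI goat symbols (DIO2, DIO3, TSHR, SLCO1C1, THRA, THRB, RAX, GPR50 and CRYM), of 20225 genes in the mRNA table. Of the 9, 8 had a row in the table and 7 had a mean of at least 0.1 FPKM (fragments relative to transcript length and to all mapped fragments), the minimum for a test. RAX, a transcription factor of tanycytes, had no row under its gene identifier and was not analysed here. All 6 animals were female Anhuai goats kept under the same conditions. The 3 pubertal goats were 4.5 to 5.0 months old, were identified by estrus detection with male goats and by the vulva, and were sampled in the late follicular phase. The 3 prepubertal goats were 2.5 to 3.0 months old. Stage, age and ovarian phase therefore cannot be told apart. One strand-specific library per goat was made from total RNA without ribosomal RNA.

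Tanycytes are the glial cells that line the floor of the third ventricle and reach into the median eminence. Thyrotropin from the pars tuberalis acts on its receptor in these cells, and the deiodinases there set the local level of active thyroid hormone: type 2 makes T3 from T4, and type 3 inactivates both. In seasonal mammals this switch is known to follow day length and to act on reproduction.

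Whole-tissue libraries hold every cell type, so fewer cells of a type and less RNA per cell cannot be told apart. Of 21 other tanycyte genes, 19 were in the table and all 19 passed the minimum. Among them SOX2 lay between 51.1 and 59.8 FPKM, VIM between 176 and 469 FPKM, and LHX2 between 1.05 and 2.24 FPKM. Of 12 hypothalamic genes 8 had a row, with SIM1 at 3.03 to 4.11 FPKM and SIX6 at 2.87 to 6.35 FPKM, while AVP, which encodes vasopressin, was listed at 0 in all 6 libraries. A 0 in this table was not read as absence. Of the 7 hypothalamic genes tested, 3 reached an unadjusted p-value under 0.05, against 5.16% of all genes. In the pubertal goats 2 of them were higher and 1 was lower. GNRH1, the gene of the hormone that drives the gonadotropins, ranged from 13.5 to 16 FPKM in the pubertal and from 5.34 to 11.6 FPKM in the prepubertal libraries (difference 0.85, adjusted p = 0.779 from limma). The neuropeptide genes POMC and AGRP had differences of 1.83 and -2.15 (adjusted p = 0.959 and 0.883 from limma), and the stages overlapped in both. POMC had 34.4, 85.1 and 429 FPKM in the pubertal libraries 1 to 3 and 47.4, 22.9 and 24.3 FPKM in the prepubertal libraries 1 to 3. AGRP had 22.7, 5.69 and 28.3 FPKM in the pubertal libraries 1 to 3 and 97.5, 176 and 22.3 FPKM in the prepubertal libraries 1 to 3. Markers of other brain regions summed to between 2.18 and 4.18 FPKM. Pubertal replicate 3 stood apart in some genes of neighbouring tissues: GH1, the growth hormone gene, was at 7.79 FPKM there and listed at 0 in the other 5 libraries. The choroid plexus genes summed to 340 FPKM there against 14.6 to 66.9 FPKM in the other 5. TTR made 309 FPKM of the 340 FPKM, and 53.4 FPKM of the 66.9 FPKM in prepubertal replicate 1. Of the same list, KCNJ13 was highest in pubertal replicate 3 (14.4 FPKM) and OTX2 was lowest there (1.15 FPKM). A value of 1 FPKM in 1 kb of effective length, which is the transcript length less 232 to 262 nt, stood for 17.3 fragments in pubertal replicate 3 and for up to 23.6 in the other libraries.

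Levels ran over more than 3 orders of magnitude, and the order was that of the gene rather than of the stage. CRYM, the cytosolic T3-binding protein mu-crystallin, had a mean of 97.5 FPKM, above 95% of the genes in the table. THRA, the thyroid hormone receptor alpha gene, had 96.5 FPKM, and the ranges of CRYM and THRA overlapped. Next came THRB, the receptor beta gene, with 12.2 FPKM, then DIO2 with 8.0 FPKM and SLCO1C1, a T4 transporter of brain vessels and glia, with 6.48 FPKM. DIO2 ran from 5.09 to 13.4 FPKM and overlapped with both of its neighbours in this order. TSHR, the thyrotropin receptor, had 3.39 FPKM and DIO3 0.911 FPKM, without overlap between these genes. GPR50, an orphan relative of the melatonin receptors that marks tanycytes in rodents, was last with 0.0596 FPKM.

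**Figure D1:**
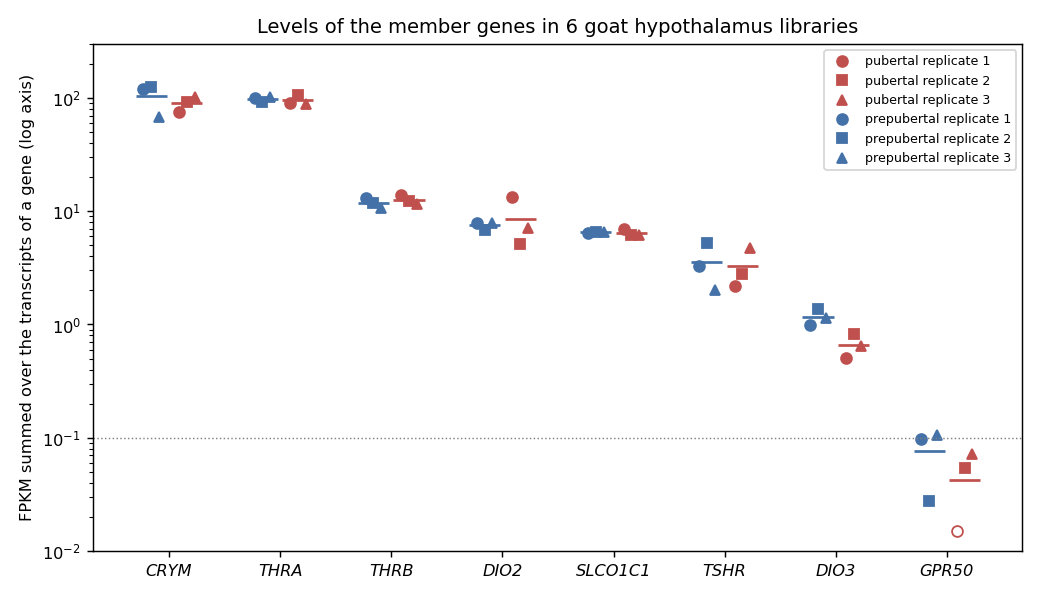
Summed FPKM on a log axis of the 8 genes with a row in the table, in 3 prepubertal (blue) and 3 pubertal (red) libraries, with the marker shape for the replicate and a bar for the mean of the stage. The open circle is the pubertal library in which GPR50 was listed at 0, the dotted line is the minimum of 0.1 FPKM, and DIO3 is the gene in which the 2 stages do not overlap among those above that line.

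In the comparison of the stages, none of the 7 genes had an adjusted p-value under 0.05 (limma, Benjamini-Hochberg over 16397 genes), where the share over all genes was 0.0%. An unadjusted p-value under 0.05 was reached by 1 of 7, DIO3, against 846 of 16397 genes (5.16%), of which 575 were higher and 271 lower in the pubertal goats, or 454 and 407 with libraries centred on the median. Libraries of the stages did not overlap in 1 of 7 (14.3%), against 9.75% of all genes. The median difference of the 7 genes was -0.04 on the log2(FPKM + 1) scale and that of all genes was -0.001. The median size of the difference, regardless of sign, was 0.07 for the 7 genes and 0.09 for all genes.

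**Figure D2:**
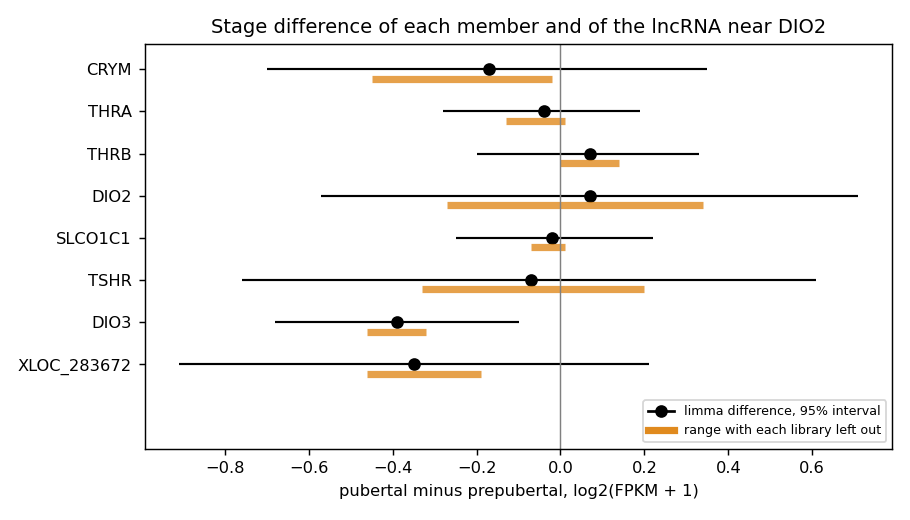
Pubertal minus prepubertal difference in log2(FPKM + 1) for the 7 genes tested and for the lncRNA near DIO2, with the 95% interval from limma (black) and the range when each library was left out in turn (orange). The interval of DIO3, -0.68 to -0.10, is the one that lies on one side of 0, and the intervals of THRA, THRB and SLCO1C1 are the narrow ones.

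DIO3, the deiodinase that inactivates thyroid hormone, measured 0.504, 0.821 and 0.643 FPKM in the pubertal libraries 1 to 3 and 0.984, 1.37 and 1.14 FPKM in the prepubertal libraries 1 to 3. All 3 pubertal values lay below all 3 prepubertal values. The means were 0.656 ± 0.159 FPKM (SD, n = 3) and 1.17 ± 0.195 FPKM (SD, n = 3). The difference was -0.39 on the log2(FPKM + 1) scale (standard error 0.13, adjusted p = 0.825 from limma), so it did not pass the adjusted threshold. Its unadjusted p-value was under 0.05 in all alternatives that kept the gene, with 1 exception, which left out prepubertal replicate 2. The difference was -0.38 without pubertal replicate 3 and -0.32 without prepubertal replicate 2. With a pseudocount of 0.1 in place of 1 it was -0.75, as the scale shrinks the change of a low gene.

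The number of fragments behind these values could be read from the steps in the table. In genes with a single transcript, the FPKM of a library was a whole multiple of the value of 1 fragment for that transcript length, and at least 99.8% of the values up to 20 fragments came out whole within 0.1 fragment, in genes that were not used to find the step. DIO3 rested on 10, 17 and 10 fragments in pubertal replicates 1, 2 and 3, and on 17, 28 and 24 in prepubertal replicates 1, 2 and 3. In pubertal replicate 1 the 95% Poisson interval, which covers counting error only, was 0.242 to 0.928 FPKM, and in prepubertal replicate 1 it was 0.573 to 1.58 FPKM. Summed over the stage there were 37 fragments in pubertal and 69 in prepubertal goats.

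Ciliated ependymal cells line the ventricle beside the tanycytes, and their markers were read beside DIO3. All 9 markers were in the table, none was at 0, and their sum lay between 111 and 133 FPKM in the pubertal and between 142 and 152 FPKM in the prepubertal libraries. CCDC153 (mean 55.5 FPKM) and DYNLRB2 (mean 48.8 FPKM) made most of that sum, and no other marker had a mean above 6.93 FPKM. The stages overlapped in CCDC153. The difference was below 0 in 9 of 9, against 50.2% of all genes. It was -0.16 for FOXJ1 and -0.04 for HYDIN, and the stages overlapped in both. The stages did not overlap in 3 of 9, against 9.75% of all genes. An unadjusted p-value under 0.05 was reached by 2, against 1.65% of all genes in that direction. These were DYNLRB2, a dynein light chain, with -0.34 (adjusted p = 0.873 from limma), and RSPH1, a radial spoke protein of cilia, with -0.42 (adjusted p = 0.883 from limma). That count was 0 without prepubertal replicate 1, and it was 1 without pubertal replicate 2, without pubertal replicate 3 or without prepubertal replicate 3. The part of these cells in the DIO3 values was not tested.

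DIO2, the deiodinase that makes T3, measured 13.4, 5.09 and 7.06 FPKM in the pubertal libraries 1 to 3 and 7.85, 6.79 and 7.84 FPKM in the prepubertal libraries 1 to 3. The highest and the lowest value both came from pubertal goats, and the stages overlapped. Means were 8.51 ± 4.33 FPKM (SD, n = 3) and 7.49 ± 0.608 FPKM (SD, n = 3), a difference of 0.07 (95% interval -0.57 to 0.71, adjusted p = 0.993 from limma). Without pubertal replicate 1 it was -0.27. The 95 fragments of that library gave a Poisson interval of 10.8 to 16.4 FPKM, and the intervals of the other 5 libraries ended at 10.3 FPKM or lower, so its distance from them was larger than the counting error. The only DIO2 transcript in the table was XM_013967359.1, with 576 nt.

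**Figure D3:**
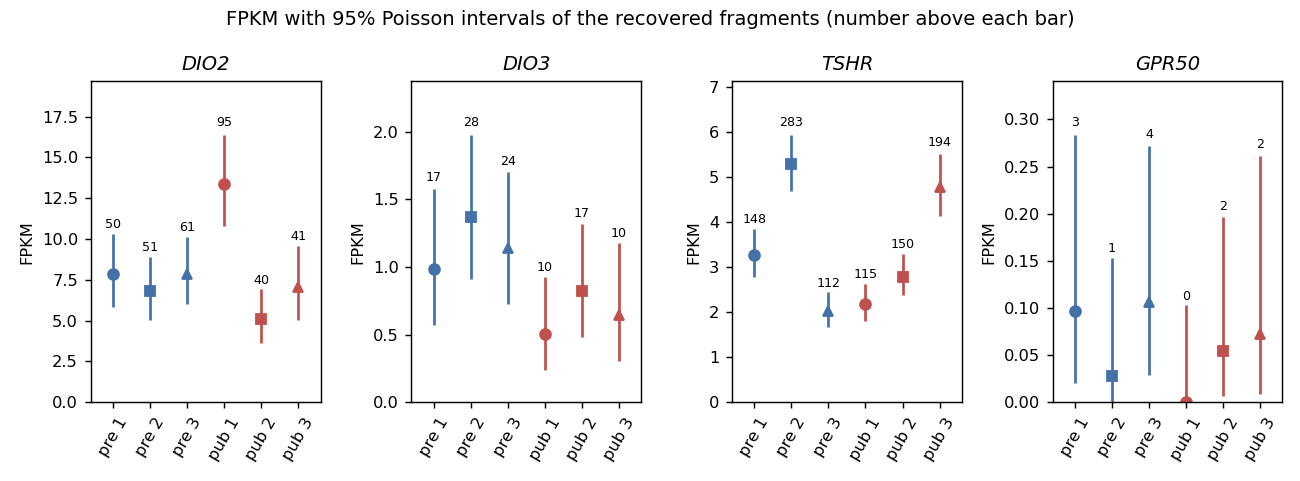
FPKM of DIO2, DIO3, TSHR and GPR50 in each library (pre, prepubertal; pub, pubertal; linear axes from 0), with 95% Poisson intervals from the recovered fragments, whose number stands above each bar. Bars of DIO3 overlap between single libraries, while DIO2 in pubertal replicate 1 and TSHR in prepubertal replicate 2 and pubertal replicate 3 lie above the bars of the other libraries.

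The balance of the deiodinases was also measured within each library, where a scaling factor has less weight. The log2 ratio of DIO2 to DIO3, each plus 1 FPKM, was 3.26, 1.74 and 2.29 in pubertal replicates 1, 2 and 3, and 2.16, 1.72 and 2.05 in prepubertal replicates 1, 2 and 3. In pubertal replicates 1 and 3 the ratio was above all prepubertal ones, and in replicate 2 it was within their range. The difference in means was 0.458 (exact two-sided permutation test, p = 0.4, adjusted p = 0.4 over 2 ratios), where 3 against 3 libraries cannot give a p-value under 0.1. Without pubertal replicate 1 it was 0.0456. With 0.1 FPKM added in place of 1 it was 0.821 (exact two-sided permutation test, p = 0.3), as 1 FPKM is near the level of DIO3.

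The study lists a lncRNA within 10 kb of DIO2 and another within 10 kb of DIO3, and no other member had one at that distance. Their sequences are shown because that list places them near the deiodinase genes. Capitals mark the longest open reading frame from ATG to a stop codon on the forward strand. In the first it was 79 codons long, at bases 562 to 798 of 1034 nt. The second, given whole with 200 nt, had no frame closed by a stop codon. It does hold an ATG whose frame runs open to its end, which was not counted. Of the first, bases 532 to 828 are given.
XLOC_283672 (TCONS_00565971), near DIO2: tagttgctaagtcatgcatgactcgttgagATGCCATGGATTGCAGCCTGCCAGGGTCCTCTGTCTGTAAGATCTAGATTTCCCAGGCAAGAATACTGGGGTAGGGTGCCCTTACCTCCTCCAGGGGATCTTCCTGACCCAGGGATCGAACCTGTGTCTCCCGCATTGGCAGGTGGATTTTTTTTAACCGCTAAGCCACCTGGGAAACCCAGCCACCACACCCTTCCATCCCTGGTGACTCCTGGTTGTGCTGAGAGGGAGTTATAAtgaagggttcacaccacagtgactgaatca
XLOC_1248122 (TCONS_02490845), near DIO3: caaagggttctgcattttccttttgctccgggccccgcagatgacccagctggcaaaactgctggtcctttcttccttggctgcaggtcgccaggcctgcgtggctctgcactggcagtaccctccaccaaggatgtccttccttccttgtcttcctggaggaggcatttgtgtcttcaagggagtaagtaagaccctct
A word of 20 bases from the printed stretch of XLOC_283672 was found in 90 of the 2942 other lncRNA sequences (3.06%), on either strand, and none was found for the rest of the transcript. For XLOC_1248122 the number was 0 of 2942.

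XLOC_283672, near DIO2, measured 1.37, 1.42 and 2.04 FPKM in the pubertal libraries 1 to 3 and 1.97, 1.94 and 3.12 FPKM in the prepubertal libraries 1 to 3. Pubertal replicate 3 lay among the prepubertal libraries. The difference was -0.35 (standard error 0.23, 95% interval -0.91 to 0.21, adjusted p = 0.943 from limma over 2925 lncRNA transcripts, of which 0.0342% passed). These values rested on 24, 26 and 28 fragments in the pubertal and on 30, 35 and 58 in the prepubertal replicates. XLOC_1248122, near DIO3, had 17.1 FPKM in the third pubertal and 18.6 FPKM in the first prepubertal library, and was listed at 0 in the other 4 libraries. With 200 nt it is shorter than the 232 to 262 nt by which the steps shorten each transcript, so the number of fragments behind these values could not be read. Its interval, -3.88 to 3.80, left the direction unknown.

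TSHR, the receptor through which thyrotropin reaches tanycytes, measured 2.19, 2.79 and 4.78 FPKM in the pubertal libraries 1 to 3 and 3.27, 5.29 and 2.03 FPKM in the prepubertal libraries 1 to 3. The pubertal values lay within the range of the prepubertal ones. The means were 3.25 ± 1.35 FPKM (SD, n = 3) and 3.53 ± 1.64 FPKM (SD, n = 3), a difference of -0.07 (95% interval -0.76 to 0.61, adjusted p = 0.993 from limma). It turned to 0.20 without prepubertal replicate 2 and to 0.11 without pubertal replicate 1. Between libraries the spread was larger than the counting error alone, though goat, dissection and library cannot be told apart: the intervals of pubertal replicate 3, 4.13 to 5.50 FPKM, and of prepubertal replicate 2, 4.69 to 5.94 FPKM, lay above 3.84 FPKM, the highest end among the other 4.

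CGA and TSHB, the genes of the thyrotropin subunits, had higher means in the pubertal libraries, but neither passed the adjusted threshold in the main comparison. The tissue that made this RNA was not tested. The list of 8 photoperiod and pars tuberalis genes was in the table in full. Unadjusted p-values under 0.05 were reached by 3 of 8, all higher in the pubertal goats, against 3.51% of all genes in that direction, and none passed the adjusted threshold. CGA, the alpha subunit shared by thyrotropin and the gonadotropins, measured 50.1, 62.5 and 39.4 FPKM in the pubertal libraries 1 to 3 and 2.24, 18.0 and 3.32 FPKM in the prepubertal libraries 1 to 3. Its difference was 2.98 (standard error 0.58, adjusted p = 0.639 from limma). Without prepubertal replicate 2 it was 3.76 with an adjusted p of 0.00789, and over the other alternatives the adjusted p ran from 0.262 to 1.

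TSHB, the beta subunit that makes thyrotropin specific, measured 2.46, 2.33 and 4.04 FPKM in the pubertal libraries 1 to 3 and 0.724, 1.84 and 0 FPKM in the prepubertal libraries 1 to 3 (difference 1.19, standard error 0.35, adjusted p = 0.795 from limma). MTNR1A, the melatonin receptor by which the pars tuberalis reads night length, measured 0.974, 2.01 and 0.783 FPKM in the pubertal libraries 1 to 3 and 0.0588, 0.199 and 0.145 FPKM in the prepubertal libraries 1 to 3 (difference 0.96, standard error 0.19, adjusted p = 0.66 from limma). The stages did not overlap in these 3 of 8 genes, against 9.75% of all genes. TAC1, the substance P precursor, had -0.40 (adjusted p = 0.962 from limma), and the other 4 genes of the list lay between -0.08 and 0.32. The count of 3 was also 3 without pubertal replicate 3.

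Of 9 markers of the anterior pituitary, 8 were in the table and 6 were tested, and 1 of the 6 reached an unadjusted p-value under 0.05, higher in the pubertal goats, against 3.51% of all genes in that direction. The 8 summed to 0.945, 2.27 and 11.5 FPKM in pubertal replicates 1, 2 and 3, and to between 1.01 and 1.62 FPKM in the prepubertal libraries. GH1 was listed at 0 in 5 of 6 libraries, POU1F1, the factor of its lineage, in 3 of 6 and FSHB in 4 of 6. The 1 gene was PITX1, a pituitary transcription factor, with 0.14, 0.793 and 0.706 FPKM in the pubertal libraries 1 to 3 and 0, 0.135 and 0.0653 FPKM in the prepubertal libraries 1 to 3. Its stages did not overlap, as in CGA, TSHB and MTNR1A and in 9.75% of all genes. Its difference was 0.51 (adjusted p = 0.873 from limma). The part of pituitary tissue in these differences was not tested.

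**Figure D4:**
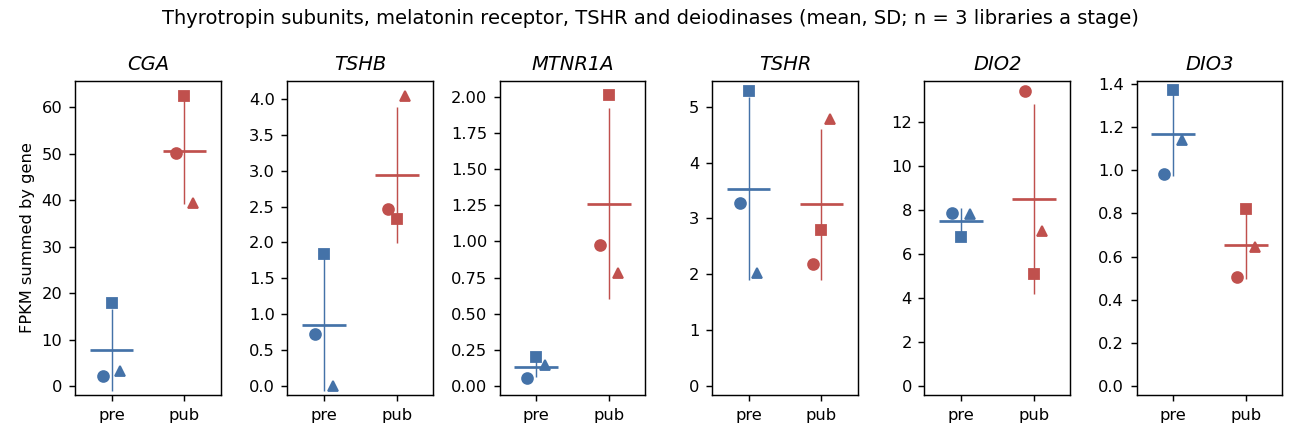
Summed FPKM (linear axes) of CGA, TSHB, MTNR1A, TSHR, DIO2 and DIO3 in the prepubertal (pre) and pubertal (pub) libraries, with the mean and SD of 3 libraries a stage. The stages do not overlap in CGA, TSHB, MTNR1A and DIO3, and they overlap in TSHR and DIO2.

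Thyroid hormone enters the brain through transporters, of which SLCO1C1 carries T4. It measured 6.98, 6.13 and 6.22 FPKM in the pubertal libraries 1 to 3 and 6.41, 6.51 and 6.61 FPKM in the prepubertal libraries 1 to 3. This was the narrowest range of the 7 genes, with the highest library 1.14 times the lowest. The difference was -0.02 (standard error 0.10, 95% interval -0.25 to 0.22, adjusted p = 0.996 from limma), and it was 0.01 without pubertal replicate 2 or 3. Its 2 transcripts were XM_013964182.1 of 2866 nt, which held 78.3% to 96.0% of the FPKM, and XM_013964183.1 of 2749 nt. The share of the first was 90.9%, 91.6% and 93.1% in the pubertal and 78.3%, 83.1% and 96.0% in the prepubertal replicates (exact two-sided permutation test, p = 0.4, adjusted p = 0.8 over 2 genes).

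Of 12 other genes of thyroid hormone transport and metabolism, none had an unadjusted p-value under 0.05, against 5.16% of all genes, and their median difference was 0.12. The amino acid transporter SLC7A8, the T3 and aromatic amino acid transporter SLC16A10 and WSB1, which marks the type 2 deiodinase for degradation, had differences of 0.22, 0.28 and 0.18. Without pubertal replicate 3 that of SLC16A10 was 0.04 and that of WSB1 was 0.02. DIO1, the deiodinase of liver and kidney, was between 0.429 and 0.771 FPKM. TTR, the T4 carrier made in quantity by the choroid plexus, measured 6.95, 1.14 and 309 FPKM in the pubertal libraries 1 to 3 and 53.4, 11.9 and 3.88 FPKM in the prepubertal libraries 1 to 3, and its difference between the stages was 0.21 (standard error 1.67, adjusted p = 0.997 from limma).

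The receptor genes varied little between libraries, with the highest value 1.22 times the lowest for THRA and 1.30 times for THRB. THRA measured 90.7, 107 and 87.7 FPKM in the pubertal libraries 1 to 3 and 99.7, 91.5 and 102 FPKM in the prepubertal libraries 1 to 3. The stages overlapped throughout, and the difference was -0.04 (standard error 0.10, 95% interval -0.28 to 0.19, adjusted p = 0.980 from limma). It was 0.01 without pubertal replicate 3 and 0.02 after quantile normalization. The table held 1 THRA transcript, XM_013972327.1 of 2131 nt, so splice forms of this receptor were not separated.

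THRB measured 13.8, 12.2 and 11.6 FPKM in the pubertal libraries 1 to 3 and 13.2, 11.9 and 10.6 FPKM in the prepubertal libraries 1 to 3. The difference was 0.07 (standard error 0.11, 95% interval -0.20 to 0.33, adjusted p = 0.971 from limma). Of its 3 transcripts, XM_013975486.1 of 1789 nt held 99.1%, 86.0% and 83.3% of the FPKM in the pubertal and 88.0%, 87.7% and 83.1% in the prepubertal replicates (exact two-sided permutation test, p = 0.8, adjusted p = 0.8 over 2 genes). XM_005698929.1 of 1424 nt was listed at 0 in pubertal replicate 1, measured 1.40 and 1.38 FPKM in replicates 2 and 3 of that stage, and measured 1.45, 1.46 and 1.79 FPKM in the prepubertal libraries 1 to 3. Its stages did not overlap, as in 9.56% of all mRNA transcripts, and its difference was -0.52 (standard error 0.34, adjusted p = 0.972 from limma over 23821 transcripts). XM_005698927.1 of 1719 nt was at 0.549 FPKM or lower in all 6 libraries. The log2 ratio of THRA to THRB, each plus 1 FPKM, lay between 2.63 and 3.15, with a difference of -0.114 between the stages (exact two-sided permutation test, p = 0.4, adjusted p = 0.4 over 2 ratios).

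Thyroid hormone receptors bind DNA with a retinoid X receptor and recruit corepressors or coactivators. Of 13 such partners, 1 had an unadjusted p-value under 0.05, against 5.16% of all genes, and their median difference was 0.05. This was RXRA, with 2.92, 4.92 and 3.34 FPKM in the pubertal libraries 1 to 3 and 2.08, 1.03 and 1.23 FPKM in the prepubertal libraries 1 to 3. All pubertal values were above all prepubertal ones, with a difference of 0.95 (standard error 0.21, adjusted p = 0.704 from limma). The stages did not overlap in 2 of the 13 partners, RXRA and NCOR1, against 9.75% of all genes. The other retinoid X receptors had -0.14 (RXRG) and 0.05 (RXRB), and the corepressor NCOR1 had 0.07.

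Genes known to respond to thyroid hormone in brain were read from a list of 10, of which 9 were in the table and tested. None had an unadjusted p-value under 0.05, against 5.16% of all genes. The median difference was 0.12, against -0.001 for all genes. Of the 9, 5 were higher and 4 were lower in the pubertal goats. The lower ones were THRSP (-0.09), CAMK4 (-0.05), NEFH (-0.03) and NEFM (-0.02). KLF9, a direct target of the receptors, had means of 30.2 ± 3.06 FPKM (SD, n = 3) in the pubertal stage and 25.8 ± 3.0 FPKM (SD, n = 3) in the prepubertal stage, with a difference of 0.22 (adjusted p = 0.962 from limma). SEMA3C, an axon guidance gene, had 0.28, SHH, the hedgehog ligand, 0.35, and RASD2, a small GTPase of striatum, 0.12. Leaving out 1 library brought KLF9 to 0.12 (prepubertal replicate 2), SEMA3C to 0.13 (pubertal replicate 1), SHH to 0.13 (pubertal replicate 3) and RASD2 to 0.03 (pubertal replicate 2).

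CRYM measured 75.9, 92.8 and 102 FPKM in the pubertal libraries 1 to 3 and 120, 126 and 68.4 FPKM in the prepubertal libraries 1 to 3. The prepubertal goats held both the highest and the lowest values. The means were 90.2 ± 13.1 FPKM (SD, n = 3) and 105 ± 31.7 FPKM (SD, n = 3), a difference of -0.17 (standard error 0.23, 95% interval -0.70 to 0.35, adjusted p = 0.969 from limma). The difference was -0.45 without prepubertal replicate 3 and -0.02 without prepubertal replicate 2.

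The gene whose pattern was most like that of CRYM over the 6 libraries, among 14080 genes with a mean of at least 1 FPKM, was SIX6, a transcription factor of the ventral hypothalamus (Pearson r = 0.993 of log2(FPKM + 1)). SIX6 measured 3.36, 4.68 and 4.77 FPKM in the pubertal libraries 1 to 3 and 5.83, 6.35 and 2.87 FPKM in the prepubertal libraries 1 to 3, which is the order of the libraries in CRYM. The second was METTL17 with 0.983. These are the highest of 14080 values, each over 6 libraries, and values as high were reached for each member compared. A value of 0.95 was passed by 14 genes with CRYM and by between 15 and 133 with THRB, TSHR, THRA, DIO2 and SLCO1C1. The nearest genes were DSCC1 and MPZL3 for DIO2 (0.992 and 0.991), FUT10 and ZNF865 for TSHR (0.994 and 0.993), RPS24 and APC for SLCO1C1 (0.997 and 0.994), CRELD1 and CHMP6 for THRA (0.995 and 0.988), and ADD1 and ZADH2 for THRB (0.993 and 0.989). The points share the same libraries and their depth.

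GPR50 measured 0, 0.0545 and 0.0722 FPKM in the pubertal libraries 1 to 3 and 0.0973, 0.0274 and 0.106 FPKM in the prepubertal libraries 1 to 3. These values were 0, 2 and 2 fragments in the pubertal and 3, 1 and 4 fragments in the prepubertal replicates. The level that 3 fragments would give was 0.0798 to 0.108 FPKM in these libraries. The Poisson intervals of all 6 libraries overlapped, so a difference of the size seen was not detectable at this depth. The 0 of pubertal replicate 1 allows up to 0.0841 FPKM by that level of 3 fragments, and the 95% Poisson interval ended at 0.103 FPKM.

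Among the 19 other tanycyte genes tested, 1 reached an unadjusted p-value under 0.05, against 5.16% of all genes, and their median difference was 0.10. This was ALDH1A1, which makes retinoic acid from retinal, with 13.4, 11.9 and 33.1 FPKM in the pubertal libraries 1 to 3 and 6.77, 7.14 and 8.15 FPKM in the prepubertal libraries 1 to 3. The stages did not overlap in this 1 of the 19 genes, against 9.75% of all genes. Its difference was 1.15 (standard error 0.33, adjusted p = 0.795 from limma), which was 0.71 without pubertal replicate 3. VCAN, the proteoglycan versican, had 0.27, PPP1R1B, the phosphatase inhibitor DARPP-32, 0.30, and CD59, a complement inhibitor, -0.17, with adjusted p-values of 0.962. The summed level of the list reached 1160 FPKM in the third pubertal library, where the other 5 had 766 to 883 FPKM. This library also had the highest sums of the choroid plexus and pituitary lists. VIM had 469 FPKM there against 176 to 303 FPKM in the other 5, and CRABP1 145 FPKM against 52.6 to 74.1 FPKM. CD59, COL25A1 and SLC17A8 were at their lowest there, with 281, 9.6 and 1.75 FPKM, so the high sum was not shared by all genes of the list.

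**Figure D5:**
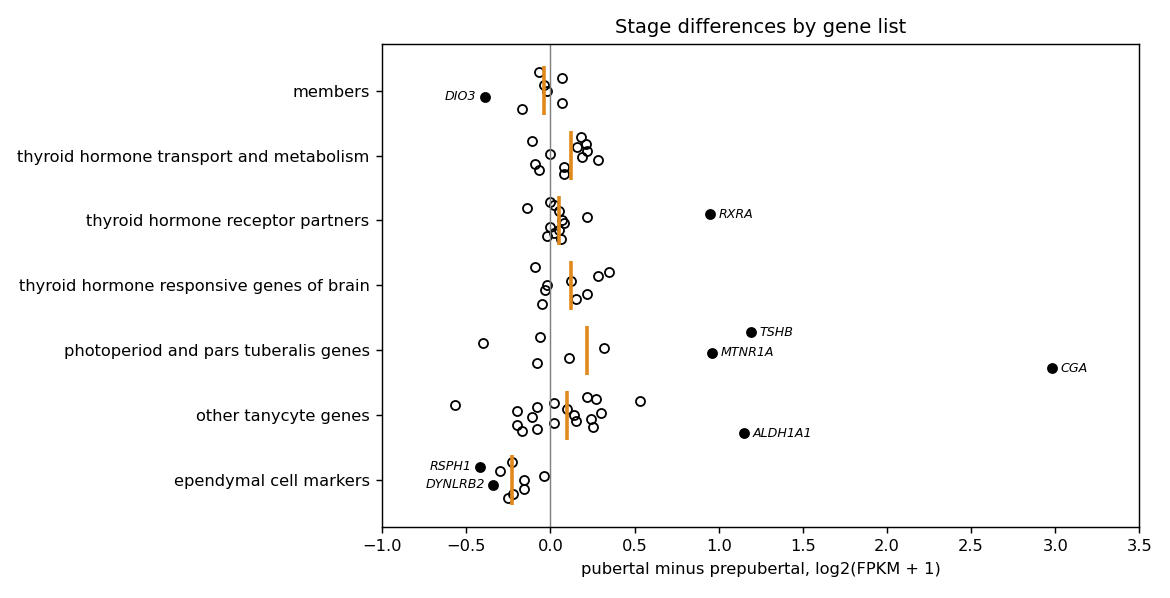
Pubertal minus prepubertal difference in log2(FPKM + 1) of each tested gene in the 7 lists drawn, with filled points for an unadjusted p-value under 0.05 and an orange line for the median of the list. In these lists, DIO3, RSPH1 and DYNLRB2 are the filled points below 0, and CGA, TSHB, MTNR1A, ALDH1A1 and RXRA those above.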

How the data were processed

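Hypothalamus of 3 pubertal and 3 prepubertal goats was studied, with 1 library per goat. After alignment with TopHat and assembly by Scripture and by Cufflinks (2.1.1 per the labels), the authors deposited FPKM per transcript and library. The build is not given in the sources used here. The authors' comparison table holds group means, fold changes and p-values; only its transcript lengths and gene identifiers were used here. Per-sample columns not used numbered 0. Symbols came from a RefSeq table of ARS1.2, which matched 19083 of 20225 genes (94.4%).

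FPKM was summed by gene. Stages were compared with limma 3.58.1 (R 4.3.3; trend, two-sided) on log2(FPKM + 1), which understates the change of low genes, over genes with a mean of at least 0.1 FPKM, with Benjamini-Hochberg adjustment over all genes and a threshold of 0.05, and the same per transcript for the mRNA and lncRNA tables. The fit was tested on simulated data. As the deposited unit is FPKM, no count model was fitted. Fragments were read from the steps in genes with 1 transcript, and their Poisson intervals (95%) cover counting error only. Other steps ran in Python 3.11.15 with scipy 1.17.1, pandas 2.3.3 and numpy 2.4.6, and plots were drawn with matplotlib 3.10.9.

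The genes and lists were chosen with earlier results of these data known. Named were all members, up to 4 genes per list with the lowest p-value, marker genes at 0, and the 2 genes most alike to each member with a mean of at least 1 FPKM. SOX2, VIM, LHX2, SIM1, TTR, DIO1, RXRB, CRABP1, COL25A1, SLC17A8 and OTX2 were chosen after their values were seen. Results that need a withheld item are left out here. Alternatives were other pseudocounts, minimums and normalizations, limma without a trend, the replicate number as a block, other sums over transcripts and leaving out each library.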

Additional observations from a re-analysis of the deposited data

How the results depend on the processing

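None of the 7 member genes passed the adjusted threshold under any alternative tried. DIO3 stayed below 0 in all of them, with a range of -0.46 to -0.32 when each library was left out in turn, and so did CRYM (-0.45 to -0.02) and XLOC_283672 (-0.46 to -0.19). The other differences were close to 0 and changed sign, DIO2, TSHR and THRB only when a library was left out, and SLCO1C1, THRA and XLOC_1248122 also under another scaling or sum over transcripts. The cause was not tested. Leaving out each library in turn gave -0.27 to 0.34 for DIO2, -0.33 to 0.20 for TSHR, -0.07 to 0.01 for SLCO1C1, -0.13 to 0.01 for THRA, 0.00 to 0.14 for THRB and -1.43 to 1.39 for XLOC_1248122. SLCO1C1 was 0.02 after scaling to transcripts of 300 nt or more and 0.07 with its most abundant transcript alone. THRA was 0.02 after quantile normalization and 0.00 after that scaling. XLOC_1248122 was 0.06 after quantile normalization and 0.00 with libraries centred on the median. The share of the main THRB transcript differed by -1.63 to 6.28 percentage points with each library left out.

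Over all genes, the number with an adjusted p under 0.05 was 0 in the main comparison and 0 to 4 with each library left out (4 without pubertal replicate 2, and 1 without prepubertal replicate 2 or 3). The number with an unadjusted p under 0.05 was 846, and 500 to 2220 with each library left out, the highest without pubertal replicate 1 (981 higher, 1239 lower) and the lowest without prepubertal replicate 1. The split into 575 higher and 271 lower moved with the scaling, to 454 and 407 with libraries centred on the median, 462 and 377 after quantile normalization, and 660 and 189 after scaling to transcripts of 300 nt or more. The ependymal count of 2 ran from 0 to 3 with each library left out, an alternative chosen after seeing the data. CGA passed the adjusted threshold without prepubertal replicate 2.

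Same-numbered libraries shared only a number: their deviations from the stage means had correlations of -0.0286, -0.107 and 0.0876 over 14081 genes. With the replicate number as a block, 1 gene passed the adjusted threshold, and no member did. In genes at the level of DIO3 or lower, the few fragments per library limit what can be seen.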
